A study of Mus musculus with 9 samples.

Results

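The mitochondrial ribosomal protein genes were taken as the genes whose symbol begins with Mrpl or Mrps followed by a number, and they were followed in the tibialis anterior muscle of mice given dexamethasone (DEX), a synthetic glucocorticoid, with or without turmeric extract (TE) in the diet. A probe set, the group of short DNA probes that reads a transcript on the array, was used only where the annotation gave it exactly 1 gene symbol, and each gene was represented by its probe set with the highest mean over the 9 arrays. This gave 76 genes of the 18193 with such a probe set, 47 named Mrpl and 29 named Mrps. They had 156 probe sets among the 45037 on the array, with 34 genes read by 1 probe set and 42 by several. All 76 were found in the RefSeq table by their Entrez number, and RefSeq lists 78 protein-coding genes with such a symbol. The other 2, Mrpl30 and Mrpl53, were read only by probe sets that share a second symbol and were left out.

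Expression was measured on Affymetrix GeneChip arrays, each array carrying RNA of a single mouse, and each of the 3 groups had 3 mice. All mice were C57BL/6J males, 15 weeks old and with no genetic change named in the labels. The DEX + TE group received 5 mg/kg DEX by intraperitoneal injection every day for 7 d and was fed an AIN93-based diet with 2% TE, which according to the protocol began 5 d before the first injection, although the sample titles place turmeric after DEX. The DEX group received the same injections on the AIN93-based diet without TE. The control group received daily intraperitoneal injections of 0.9% saline on that diet. Per the study's methods, the mice put on arrays were picked for body and muscle weights near their group's mean. No group received TE without DEX, so an effect of TE in muscle not exposed to DEX was not measured.

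The deposited values were linear signals, brought on every array to a mean of 500 after trimming 2% of the probe sets at each end. Median signals ran from 84.7 to 95 on DEX + TE arrays, from 71.3 to 77.7 on DEX arrays and from 76.0 to 86.2 on control arrays. The 3′ actin signal relative to the 5′ one, which reads RNA quality, was 0.38 to 0.54 on the log2 scale in DEX + TE mice, 0.10 to 0.43 in DEX mice and 0.25 to 0.33 in control mice. For Gapdh the group means of this log2 ratio were −0.33 in DEX + TE mice, −0.33 in DEX mice and −0.34 in control mice. The muscle fiber genes Acta1, Ckm, Myh4, Tnnt3 and Pvalb had mean signals of at least 45073 in each group. In bulk muscle, fewer cells of a type and less RNA per cell cannot be told apart.

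The mitochondrial ribosome translates the small set of messages that the mitochondrial genome encodes, nearly all of them for subunits of the respiratory chain and ATP synthase. Its RNA comes from the mitochondrial genome, but all of its proteins are encoded in the nucleus, made in the cytosol and imported. Some descend from proteins of the bacterial ribosome, and others were added in the mitochondrial lineage. Skeletal muscle, rich in mitochondria, depends on this ribosome for oxidative phosphorylation, and several of the genes are known for human mitochondrial disease.

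The promoters of 4 members are shown because these were, among the members with an entry in the promoter table, the 2 with the lowest and the 2 with the highest log2 fold change in DEX vs control. Each runs from 250 bases before to 50 bases after the annotated start, 5′ to 3′ on the gene's own strand, and is RefSeq sequence of GRCm38.p6. Capitals mark matches, on either strand, to the letters GCATGCGC (the core of the site of nuclear respiratory factor 1, NRF-1), CCGGAAGT (an ETS site of the kind that GABP binds), AAGGTCA (the half-site of the estrogen-related receptors), AAGATGGC (the YY1 site) and AGAACA (a half-site of the glucocorticoid receptor). Mrpl39 lies on the minus strand at chr16:84735195-84735494, Mrpl45 on the plus strand at chr11:97315466-97315765, Mrpl33 on the plus strand at chr5:31613701-31614000 and Mrps25 on the minus strand at chr6:92183974-92184273.
Mrpl39: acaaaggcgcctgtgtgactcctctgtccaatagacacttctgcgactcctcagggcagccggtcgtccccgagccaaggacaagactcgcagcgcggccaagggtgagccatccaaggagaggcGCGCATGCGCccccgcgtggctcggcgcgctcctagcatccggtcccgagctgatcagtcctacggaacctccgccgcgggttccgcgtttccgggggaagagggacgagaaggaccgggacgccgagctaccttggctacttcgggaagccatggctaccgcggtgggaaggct
Mrpl45: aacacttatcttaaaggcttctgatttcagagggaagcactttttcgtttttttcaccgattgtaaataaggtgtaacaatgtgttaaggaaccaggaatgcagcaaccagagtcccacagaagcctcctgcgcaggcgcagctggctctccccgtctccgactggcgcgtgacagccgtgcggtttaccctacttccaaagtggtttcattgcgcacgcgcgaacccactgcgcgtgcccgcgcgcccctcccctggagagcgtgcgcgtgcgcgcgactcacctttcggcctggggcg
Mrpl33: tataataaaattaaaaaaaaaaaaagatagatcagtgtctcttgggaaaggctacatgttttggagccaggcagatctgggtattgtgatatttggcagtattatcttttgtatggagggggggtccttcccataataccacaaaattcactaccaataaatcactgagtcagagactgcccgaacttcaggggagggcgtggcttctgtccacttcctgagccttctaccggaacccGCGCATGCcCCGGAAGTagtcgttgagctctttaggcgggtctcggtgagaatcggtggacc
Mrps25: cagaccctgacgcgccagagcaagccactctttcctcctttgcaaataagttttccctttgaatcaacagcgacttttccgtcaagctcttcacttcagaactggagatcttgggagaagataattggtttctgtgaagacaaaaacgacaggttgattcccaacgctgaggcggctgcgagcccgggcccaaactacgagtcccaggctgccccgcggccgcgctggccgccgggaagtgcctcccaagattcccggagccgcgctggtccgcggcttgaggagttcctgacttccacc
In Mrpl39 the NRF-1 core was found on both strands, overlapping, with its first letters 125 and 123 bases before the start. In Mrpl33 an NRF-1 core began 12 bases and an ETS site 3 bases before the start. Mrpl45 and Mrps25 held none of these letters. The table had a promoter for 67 of the 76 members. Mrpl13, Mrpl15, Mrpl19, Mrpl38, Mrpl4, Mrpl54, Mrps28, Mrps34 and Mrps35 had none.

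Over the 67 promoters, the NRF-1 core was found in 8 (11.9%), against 2.8% of the 27025 promoters of the table and 3.6% of the 17491 of protein-coding genes. The ETS letters were found in 11 (16.4%, against 4.0% and 5.29%) and the YY1 letters in 12 (17.9%, against 2.88% and 3.22%). The estrogen-related receptor half-site was found in 4 (5.97%, against 4.66% and 4.08%), and the glucocorticoid receptor half-site in 7 (10.4%, against 19.0% and 16.4%). In 31 of the 67 none of the letters was found. A match is a description of the sequence, and no binding was measured in these mice. The members whose DEX and control signals did not overlap, with DEX lower, held the NRF-1 core in 2 of 18 promoters, and the other members in 6 of 49.

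Mitochondrial ribosomal protein genes were strongly detected. The mean signal of a member over the 9 arrays lay between 428.8 and 18760, with a median of 2388, and all 76 had a signal of 200 or more on every array. All 76 passed the filter, a mean log2 signal of at least that of 50 in 1 or more groups, which left 29269 probe sets to be tested. The choice of the brightest probe set raised these levels, which are therefore described without a test. Mrpl42, Mrpl51, Mrpl23 and Mrps14 had the brightest probe sets and Mrps5, Mrps27, Mrpl38 and Mrpl49 the dimmest, and since signals of different probe sets are not on a common scale, this does not rank the transcripts.

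The mice of a group differed little in these genes. The median SD of the members' log2 signals was 0.08 in DEX + TE mice, 0.08 in DEX mice and 0.11 in control mice. Over all 13676 genes tested it was 0.18 in DEX + TE mice, 0.21 in DEX mice and 0.20 in control mice. The 1525 genes with a mean signal between 1574 and 3646, the middle range of the members, had median SDs of 0.08 in DEX + TE mice, 0.11 in DEX mice and 0.10 in control mice, so the small spread was also seen in other genes of this brightness. The largest SDs were those of Mrps5 in DEX + TE mice (0.41), Mrpl38 in DEX mice (0.30) and Mrpl33 in control mice (0.80).

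DEX vs control asked how DEX changed these genes relative to saline injections. The members were slightly lower in DEX muscle by value, with a median log2 fold change of −0.09 that became 0.017 once the arrays were centred on their medians, and no member passed the test. The median was −0.03 over all probe sets tested and 0.01 over the genes of similar signal. Of the 76 members, 24 were higher by value and 52 lower (68.4%). Over all probe sets 53.2% were lower, and over the genes of similar signal 47.6%. The lowest members were Mrps35, Mrpl39, Mrpl45 and Mrpl13, at −0.47 to −0.38, and the highest was Mrpl33 at 0.86. Only 6 members were below −0.30 and 1 above 0.30, and 59 lay within 0.20 of 0.

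A call required an adjusted p under 0.05, together with a log2 fold change of at least 0.6 in either direction, in limma, fitted to all 9 arrays, with Benjamini-Hochberg adjustment over the 29269 probe sets. By this rule 0 of 76 members were called, against 0.502% of all probe sets. Rank Product, the test that the methods name, called 0 members against 0.249%. It was run here on the deposited intensities and called fewer probe sets than the paper reports for this comparison. The lowest adjusted p of a member was 0.0895, for Mrpl39. At an unadjusted p under 0.05, 9 members were lower, where the share over all probe sets was 8.33%, and 0 were higher, where it was 6.1%. The 95% confidence interval of the log2 fold change lay within ±0.6 for 70 members and within ±1 for 75. The exception was Mrpl33. Rises or falls of 1 or more on the log2 scale were thus outside the intervals of 75 members, and those of 0.6 or more outside the intervals of 70. The median half-width of an interval was 0.25, so differences well below that were not resolved.

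**Figure D1:**
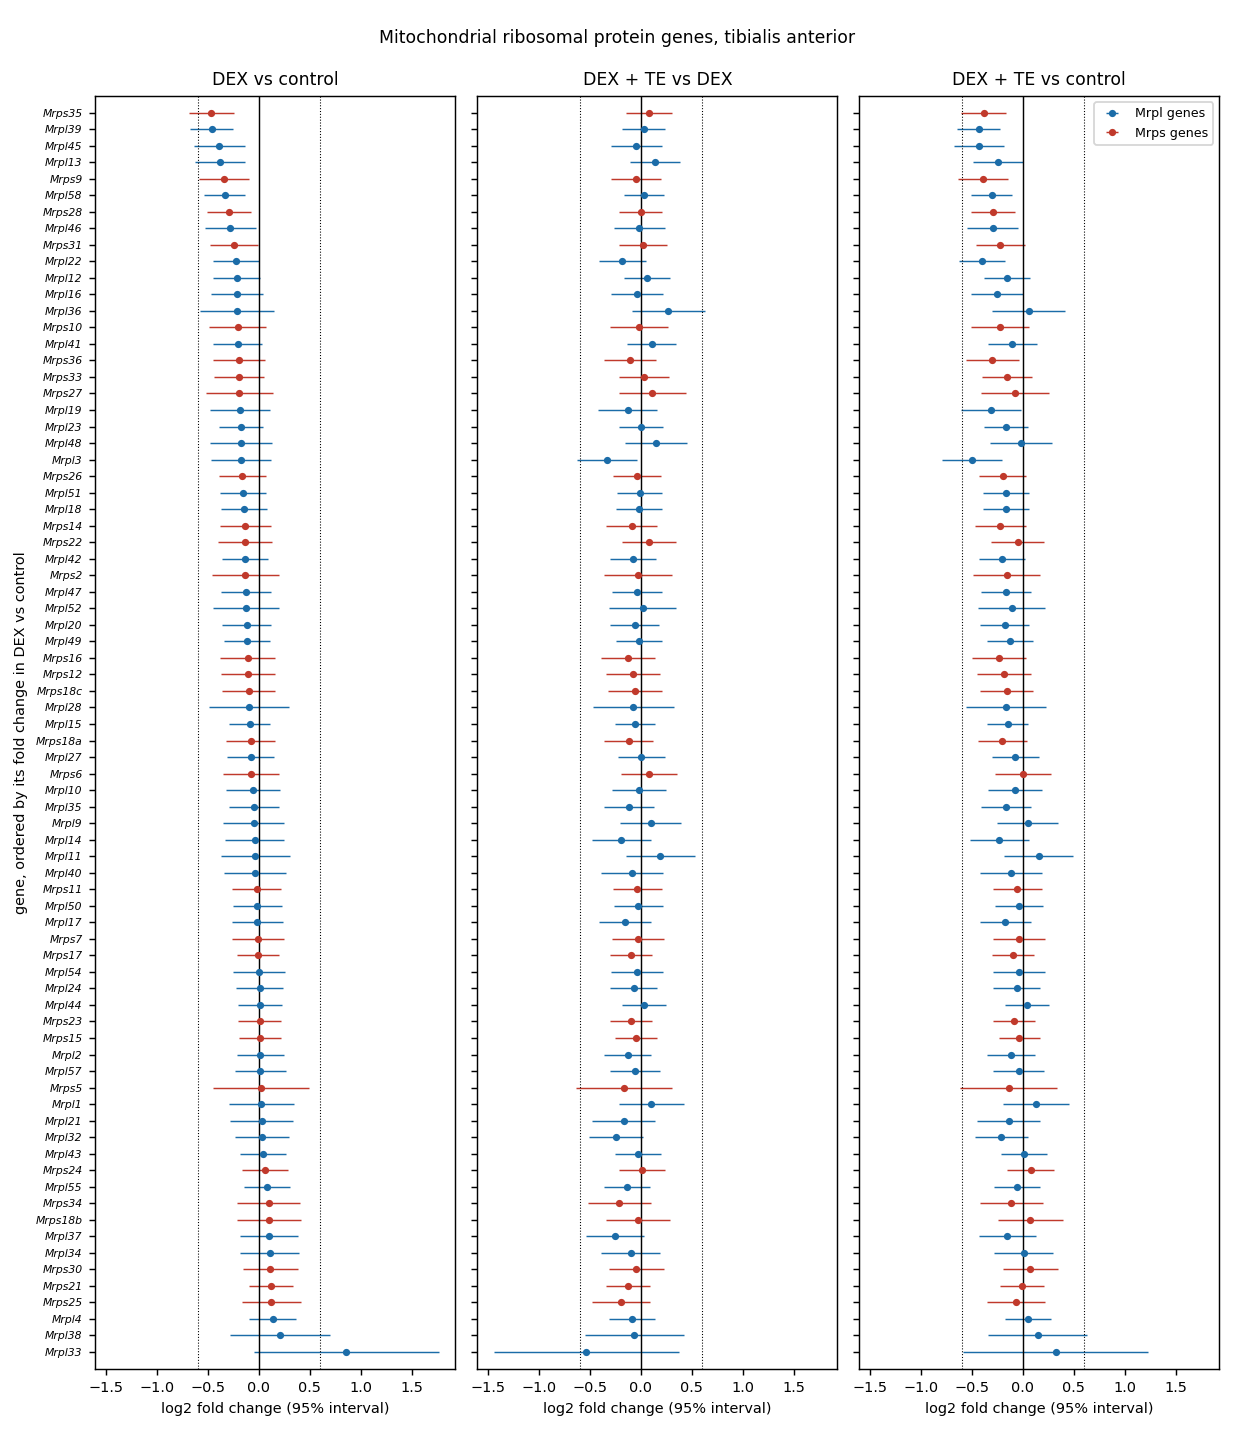
Log2 fold change of each of the 76 genes (points) with its 95% confidence interval from limma (bars) in DEX vs control, DEX + TE vs DEX and DEX + TE vs control, 3 mice per group, genes ordered by DEX vs control, dotted lines at ±0.6, Mrpl genes in blue and Mrps genes in red. Most intervals span 0, 9 genes of the upper rows lie below 0 in DEX vs control, and Mrpl33 in the last row has the widest interval.

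The groups did not overlap, every DEX signal being below every control signal, for 23 members, against 12.1% of all probe sets, and the reverse held for 1 member, Mrpl4, against 9.07%. Among the 1525 genes of similar signal, 227 were lower and 284 higher without overlap, 33.5% in either direction against 31.6% of the members. After centring the arrays on their medians, 10 members did not overlap, 6 lower and 4 higher, against 19.7% of all probe sets in either direction. An exact permutation test of 3 against 3 mice cannot give a two-sided p below 0.1, the value that each of these 24 members reached. Mrpl4, a protein of the large subunit, had signals of 2309, 2309.5 and 2533 in DEX mice and 2088, 2207 and 2203 in control mice, with a log2 fold change of 0.14 (limma, adjusted p = 0.564).

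Mrps35, a protein of the small subunit with no bacterial counterpart, had signals of 897, 872 and 914 in DEX + TE mice, 844, 841 and 851 in DEX mice and 1097, 1127 and 1286 in control mice. The control mice lay above all 6 mice given DEX, and DEX + TE lay just above DEX with no overlap. Its log2 fold change was −0.47 ± 0.10 (SE) in DEX vs control (limma, adjusted p = 0.0979), 0.08 in DEX + TE vs DEX (adjusted p = 0.866) and −0.38 in DEX + TE vs control (adjusted p = 0.162). Mrpl39, a large-subunit protein related to threonyl-tRNA synthetase, also had all control mice above the mice given DEX. Its signals were 3697, 3934 and 4071 in DEX + TE mice, 3804, 3690.2 and 3985 in DEX mice and 5155, 5527 and 5129.7 in control mice. The log2 fold changes were −0.46 ± 0.09 in DEX vs control (limma, adjusted p = 0.0895) and 0.03 in DEX + TE vs DEX (adjusted p = 0.959). A second probe set of Mrpl39 gave −0.32 in DEX vs control (limma, adjusted p = 0.241).

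Mrpl45, which tethers the ribosome to the inner membrane near the exit of the tunnel, had signals of 2211, 1922 and 2054 in DEX + TE mice, 2049, 2146 and 2169 in DEX mice and 2513, 2855 and 2981 in control mice. Its log2 fold change in DEX vs control was −0.39 ± 0.11 (limma, adjusted p = 0.169). Mrpl13, a large-subunit protein with a bacterial counterpart, had signals of 4729.9, 4769 and 4563 in DEX + TE mice, 3808, 4634 and 4402 in DEX mice and 5416, 5845 and 5375 in control mice. The control mice again lay above the mice given DEX, and DEX + TE overlapped DEX. Its log2 fold change in DEX vs control was −0.38 ± 0.10 (limma, adjusted p = 0.175), and its other bright probe sets gave −0.13 and −0.02.

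Mrpl58, a peptidyl-tRNA hydrolase that rescues stalled ribosomes and also forms part of the large subunit, had signals of 2132, 2195 and 2130.3 in DEX + TE mice, 2103, 2019.7 and 2204 in DEX mice and 2722, 2677 and 2577 in control mice. Its log2 fold change in DEX vs control was −0.33 ± 0.09 (limma, adjusted p = 0.15). Mrps28, a small-subunit protein, had signals of 5394, 5476 and 5548 in DEX + TE mice, 5469, 5385 and 5592 in DEX mice and 6480.3, 6388 and 7318 in control mice, with a log2 fold change of −0.29 ± 0.09 (limma, adjusted p = 0.218). In both genes the groups given DEX lay at one level and the control mice above it. Mrps9 of the small subunit (−0.34), Mrpl46 of the large subunit (−0.28) and Mrps31 of the small subunit (−0.24) completed the 9 members with an unadjusted p under 0.05. Mrps28, Mrpl46 and Mrps31 are named here after their values were seen.

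In these 9 members the log2 fold change of DEX + TE vs DEX lay between −0.05 and 0.14, and that of DEX + TE vs control between −0.43 and −0.22. The comparisons share arrays, and the 9 were picked on DEX vs control, so these values stand side by side as a description. Members passed only with changes to the rule of a call that were chosen after seeing the data. With a mean-variance trend and no minimum fold change together, 6 of them (Mrps35, Mrpl39, Mrpl45, Mrpl13, Mrpl58 and Mrps28) had an adjusted p under 0.05, between 0.00319 for Mrpl39 and 0.0359 for Mrps28, and all were lower, as were 2.16% of all probe sets under that rule. With either change alone, 0 members were called. None of the 6 reached an absolute log2 fold change of 0.6. With only probe sets of a group mean of 100 or more, 2 members were lower without a minimum fold change, against 1.07% of the probe sets tested, Mrpl39 (limma, adjusted p = 0.04) and Mrps35 (adjusted p = 0.0452).

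Mrpl33, a small large-subunit protein with a bacterial counterpart, had the highest fold change and the widest spread. Its signals were 3968, 2743 and 2558 in DEX + TE mice, 5273, 3856 and 4174 in DEX mice and 1413, 4286 and 2343 in control mice. One control mouse was at the DEX level and another was the lowest of the 9, so the groups overlapped. The log2 fold change in DEX vs control was 0.86, with a 95% interval of −0.05 to 1.77 (limma, adjusted p = 0.371). Without control replicate 1 it was 0.47, and without control replicate 2 it was 1.27. A second, dim probe set of Mrpl33, with a mean signal of 42.7, gave 2.34 (limma, adjusted p = 0.336).

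**Figure D2:**
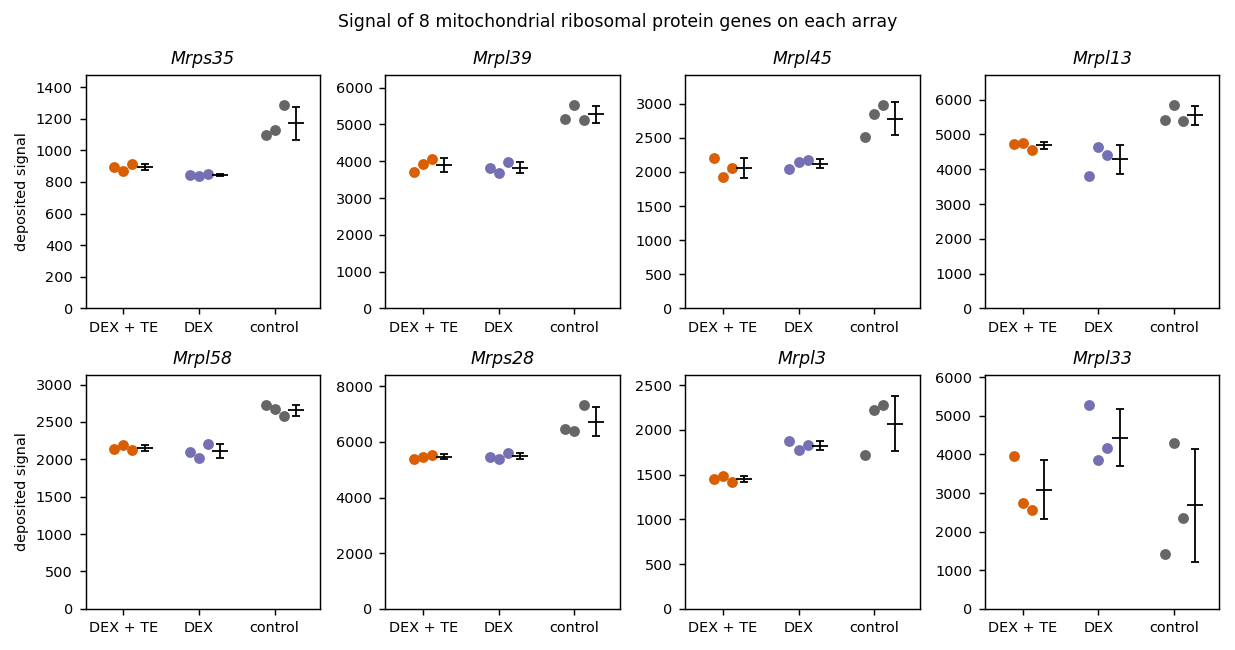
Deposited signal of 8 genes on each array (points, replicates 1 to 3 from left to right within a group) with the mean and SD of the 3 mice (black bars), DEX + TE in orange, DEX in purple and control in grey. For Mrps35, Mrpl39, Mrpl45, Mrpl13, Mrpl58 and Mrps28 all control points lie above all points of the groups given DEX. Mrpl3 is lowest in DEX + TE, and the control points of Mrpl33 run from 1413 to 4286.

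Among the other members higher by value in DEX muscle, Mrpl38 of the large subunit gave 0.21, Mrps25 of the small subunit 0.12, Mrps21, a small-subunit protein with a bacterial counterpart, 0.12, and Mrps30, which despite its name lies in the large subunit, 0.11. The DEX and control signals of these members overlapped. Dimmer probe sets gave 0.45 and −0.77 for Mrpl38, −0.23 and 0.20 for Mrps25 and −0.21 for Mrps21. Mrpl38 also varied within the groups, with signals of 803, 797 and 559.5 in DEX mice and 526, 753 and 587 in control mice.

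By role, the 27 large-subunit proteins with a bacterial counterpart had a median of −0.06 on the log2 scale in DEX vs control, 19 being lower by value and 1 with an unadjusted p under 0.05. The 20 large-subunit proteins grouped as mitochondrial only had −0.12, with 13 lower and 4 at that p. Mrpl47 (−0.13), whose family has a bacterial member, was counted among these 20. The 17 small-subunit proteins with a bacterial counterpart had −0.08, with 12 lower and 2 at that p, and the 9 found only in mitochondria had −0.16, with 6 lower and 2 at that p. Over all probe sets, 8.33% were lower at that p and 6.1% higher. After centring the arrays the medians were 0.045 and −0.017 for the large-subunit groups of 27 and 20, and 0.024 and −0.058 for the small-subunit groups of 17 and 9. No test between these groups of proteins was made.

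Other members with special roles, besides Mrpl45 and Mrpl58, had log2 fold changes closer to 0. Mrpl12, which sits on the stalk of the large subunit and also binds the mitochondrial RNA polymerase, had signals of 5066, 5516 and 5120.5 in DEX mice and 5638, 6523 and 6127 in control mice. All DEX mice lay below all control mice, with a log2 fold change of −0.22 (limma, adjusted p = 0.368). Mrps12, in the decoding centre of the small subunit, had −0.11, and Mrpl44, which has an RNase III-like fold, had 0.01. The related Mrps18a, Mrps18b and Mrps18c, which share an ancestor in bacterial S18, had −0.08, 0.10 and −0.10. Mrps34, needed for stability of the small subunit, had 0.10. Mrps36, which is now known as a subunit of the 2-oxoglutarate dehydrogenase complex, had −0.19, with signals of 4125, 3848 and 3673 in DEX mice and 4581, 4213 and 4502 in control mice.

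DEX + TE vs DEX asked whether the extract moved these genes in muscle of mice given DEX. The differences were small, with a median log2 fold change of −0.04 over the members (−0.29 with the arrays centred on their medians), against 0.05 over all probe sets and −0.04 over the genes of similar signal. By value 21 members were higher and 55 lower, between −0.54 for Mrpl33 and 0.27 for Mrpl36, and 70 lay within 0.20 of 0. Lower by value were 72.4% of the members, 40.9% of all probe sets and 63.2% of the genes of similar signal. Limma called 0 of 76 members, against 0.0137% of all probe sets, and Rank Product called 0, against 0.12%. At an unadjusted p under 0.05, 0 members were higher, against 6.2% of all probe sets, and 1 was lower, against 1.56%. The 95% intervals of 72 members lay within ±0.6 and those of 75 within ±1.

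The member at that p was Mrpl3, a core protein of the large subunit near the peptidyl transferase centre. Its signals were 1453, 1487 and 1418 in DEX + TE mice, 1873, 1772 and 1826 in DEX mice and 1713, 2218 and 2273 in control mice. The DEX + TE mice were below all others, and DEX overlapped control. The log2 fold change of Mrpl3 was −0.33 ± 0.13 in DEX + TE vs DEX (limma, adjusted p = 0.604) and −0.50 ± 0.13 in DEX + TE vs control (adjusted p = 0.168). Its other tested probe sets gave −0.12 and 0.28 in DEX + TE vs DEX, so they differed in sign.

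Without overlap between DEX + TE and DEX, 10 members were lower, against 4.75% of all probe sets, and 2 were higher, against 10.1%. Of the 1525 genes of similar signal, 171 were lower and 61 higher without overlap, 15.2% in either direction against 15.8% of the members. The higher members were Mrps35 and Mrpl36, and the lower members included Mrpl3, Mrpl37 of the large subunit (−0.25), Mrpl32 of the large subunit (−0.24) and Mrpl22, which lines the exit tunnel (−0.18). Mrpl36, a short large-subunit protein with a bacterial counterpart, had signals of 1222, 1163 and 1182 in DEX + TE mice, 1070.1, 919.6 and 972 in DEX mice and 1080.0, 1431 and 965 in control mice. Its log2 fold change in DEX + TE vs DEX was 0.27 (limma, adjusted p = 0.718), and the control mice overlapped both groups. The count of 12 was 20 without DEX replicate 2, against 24.8% of all probe sets, 19 without DEX replicate 3, against 26.1%, and 28 without DEX + TE replicate 1, against 26.6%, where fewer mice make an overlap less likely by construction. After centring the arrays it was 61, all lower, against 28.9%. The genes of similar signal then had a median log2 fold change of −0.29 as well.

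DEX + TE vs control set the group given both agents against the mice given neither. The median log2 fold change of the members was −0.14 (−0.29 with the arrays centred on their medians), against 0.05 over all probe sets and −0.03 over the genes of similar signal, with 13 members higher and 63 lower by value. Lower by value were 82.9% of the members, 44.1% of all probe sets and 54.7% of the genes of similar signal. Limma called 0 of 76 members, against 0.379% of all probe sets, and Rank Product called 0, against 0.478%. At an unadjusted p under 0.05, 11 members were lower, against 5.84% of all probe sets, and 0 were higher, against 7.95%. The lowest adjusted p was 0.117, for Mrpl39. Without overlap 26 members were lower, against 10.3%, and 0 were higher, against 12.4%. In the 1525 genes of similar signal, 320 were lower and 233 higher without overlap, 36.3% in either direction against 34.2% of the members. With a mean-variance trend and no minimum fold change, 7 members had an adjusted p under 0.05, all lower, against 1.39% of all probe sets. They were Mrpl3, Mrpl22, Mrpl39, Mrpl45, Mrpl58, Mrps9 and Mrps28.

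Mrpl22 was lower in each step by value. Its signals were 3095, 2869.8 and 2915 in DEX + TE mice, 3370.0, 3440.3 and 3246 in DEX mice and 4277, 3791 and 3685 in control mice, and no group overlapped another. Its log2 fold changes were −0.22 in DEX vs control (limma, adjusted p = 0.356), −0.18 in DEX + TE vs DEX (adjusted p = 0.706) and −0.40 in DEX + TE vs control (adjusted p = 0.154).

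The median of the members shifted with the scaling of the arrays, since the arrays differed in their medians while sharing a trimmed mean. Centring each array on its own median moved the median of all probe sets to 0.08 in DEX vs control, −0.20 in DEX + TE vs DEX and −0.11 in DEX + TE vs control. The members then had medians of 0.017 in DEX vs control, −0.29 in DEX + TE vs DEX and −0.29 in DEX + TE vs control, so that the sign in DEX vs control was reversed, and 61 members were lower in DEX + TE than in DEX without overlap, against 28.9% of all probe sets higher or lower. Quantile normalization gave the members −0.09 in DEX vs control, −0.02 in DEX + TE vs DEX and −0.11 in DEX + TE vs control.

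Set against the genes of similar signal, which include the members of that range, the members moved little with quantile normalization. Centring moves every gene of a comparison by the same amount, so it cannot change such a difference. In DEX vs control the difference of the members' median from theirs was −0.09 as deposited, −0.09 after centring and −0.08 after quantile normalization. In DEX + TE vs DEX the difference was −0.0021 as deposited, −0.0021 after centring and −0.0138 after quantile normalization. In DEX + TE vs control it was −0.11 as deposited, −0.11 after centring and −0.10 after quantile normalization. These are medians over genes, which are not replicates, and no test was made of them.

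**Figure D3:**
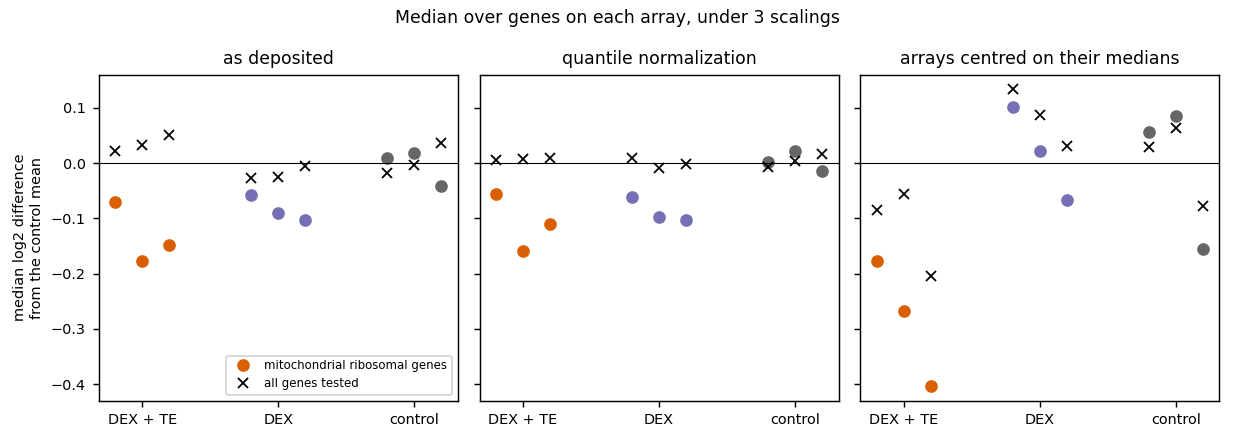
Median over the 76 mitochondrial ribosomal protein genes (circles) and over all 13676 genes tested (crosses) of the log2 difference from the mean of the control mice, on each array, under 3 scalings, with DEX + TE, DEX and control from left to right. As deposited, the circles lie at −0.07, −0.18 and −0.15 in DEX + TE, at −0.06, −0.09 and −0.10 in DEX and at 0.01, 0.02 and −0.04 in control, whereas after centring the DEX and control circles overlap.

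On each array as deposited, the median over the members of the log2 difference from the control mean was −0.07, −0.18 and −0.15 in DEX + TE mice, −0.06, −0.09 and −0.10 in DEX mice and 0.01, 0.02 and −0.04 in control mice. All mice given DEX were below all control mice, although DEX replicate 1 lay close to control replicate 3, and the same held after quantile normalization. On the arrays centred on their medians the DEX mice lay at 0.10, 0.02 and −0.07 and the control mice at 0.06, 0.08 and −0.16, so DEX and control overlapped.

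The probe sets not chosen gave a mixed picture. Of 80 such probe sets of the members, 65 passed the filter, and 37 of these had the sign of the chosen probe set in DEX vs control, 38 in DEX + TE vs DEX and 36 in DEX + TE vs control. Limma called 0 of them. Of the 31 with a mean signal of 500 or more, 26 were lower by value in DEX muscle, and all 4 that belonged to members with an unadjusted p under 0.05 were lower. Of the chosen probe sets, 4 carried the suffix x and 7 the suffix s, with which the manufacturer marks probe sets that can bind transcripts of other genes or of several similar ones, and for these genes the signal can be shared with a related gene or pseudogene.

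Other genes of mitochondrial translation were read in the same fit. The 4 ribosome members with other symbols that were measured, Dap3, Ptcd3, Chchd1 and Gadd45gip1, had log2 fold changes of −0.12 to 0.02 in DEX vs control. In DEX + TE vs DEX each of the 4 had a negative value, the median being −0.13. Of 21 assembly and ribosomal RNA factors, the median was −0.11, with 15 lower by value and 1 with an unadjusted p under 0.05, the GTPase Mtg1 (−0.29). Of 14 genes of mitochondrial transcription and RNA stability the median was −0.10, and 1 was at that p, the transcription factor Tfb2m (−0.26). Over all probe sets, 8.33% were lower at that p in DEX vs control. After centring the arrays, the median was −0.0087 for the assembly factors and 0.0046 for the transcription genes. Limma called 0 genes of these lists in any of the 3 comparisons.

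Of 11 mitochondrial translation factors the median in DEX vs control was −0.17 (−0.071 after centring the arrays), with 3 lower and 1 higher at an unadjusted p under 0.05. At that p, 8.33% of all probe sets were lower and 6.1% higher. The formyltransferase Mtfmt, which prepares the initiator tRNA, had −0.59, the initiation factors Mtif3 and Mtif2 −0.42 and −0.30, and the elongation factor Tufm 0.31. Of 16 mitochondrial aminoacyl-tRNA synthetases, which charge the tRNAs, the median was −0.22 (−0.12 after centring), with 12 lower and 3 at that p, Vars2 (−1.07), Sars2 (−0.53) and Lars2 (−0.35). The probe sets of the synthetases were dim, with a median signal of 414 and a median SE of 0.17, against 2388 and 0.11 for the mitochondrial ribosomal protein genes. Their summed signal was 7429 to 8017 in DEX + TE mice, 7501 to 8316 in DEX mice and 9014 to 9125 in control mice. The control mice thus lay above the mice given DEX. Limma called 0 genes of both lists in any of the 3 comparisons.

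The nuclear genes of the respiratory chain and ATP synthase, whose proteins assemble with the products of the mitochondrial ribosome, were lower by more than the ribosome itself in the deposited values. All 73 that were measured had a negative log2 fold change in DEX vs control, the median being −0.31. Of these, 51 had an unadjusted p under 0.05, against 8.33% of all probe sets lower at that p, and 0 were called. Examples are Atp5g3 of ATP synthase (−0.54), Cox7a1 of cytochrome oxidase (−0.44), Sdhb of succinate dehydrogenase (−0.43) and Uqcrh of complex III (−0.42). After centring the arrays their median was −0.21, against 0.017 for the mitochondrial ribosomal protein genes, and after quantile normalization it was −0.10, against −0.09. Their probe sets had a median signal of 25300, and the part of brightness in the difference between the lists was not tested. In DEX + TE vs DEX their median was 0.04, −0.21 after centring and −0.01 after quantile normalization.

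The 45 proteins of the cytosolic ribosome had a median of −0.07 in DEX vs control and 0.05 in DEX + TE vs DEX, but the sign in DEX vs control depended on the scaling, with 0.03 after centring and 0.05 after quantile normalization, and so did that in DEX + TE vs DEX, with −0.20 after centring. Of 9 regulators of mitochondrial genes the median was 0.03, and Myc (−1.37) and the coactivator Ppargc1b (−0.51) were lower at an unadjusted p under 0.05. At that p, 8.33% of all probe sets were lower in DEX vs control. The coactivator Ppargc1a had 0.13, the NRF-1 gene Nrf1 0.02 and the GABP subunit gene Gabpa 0.11. Limma called 0 genes of both lists in any of the 3 comparisons.

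**Figure D4:**
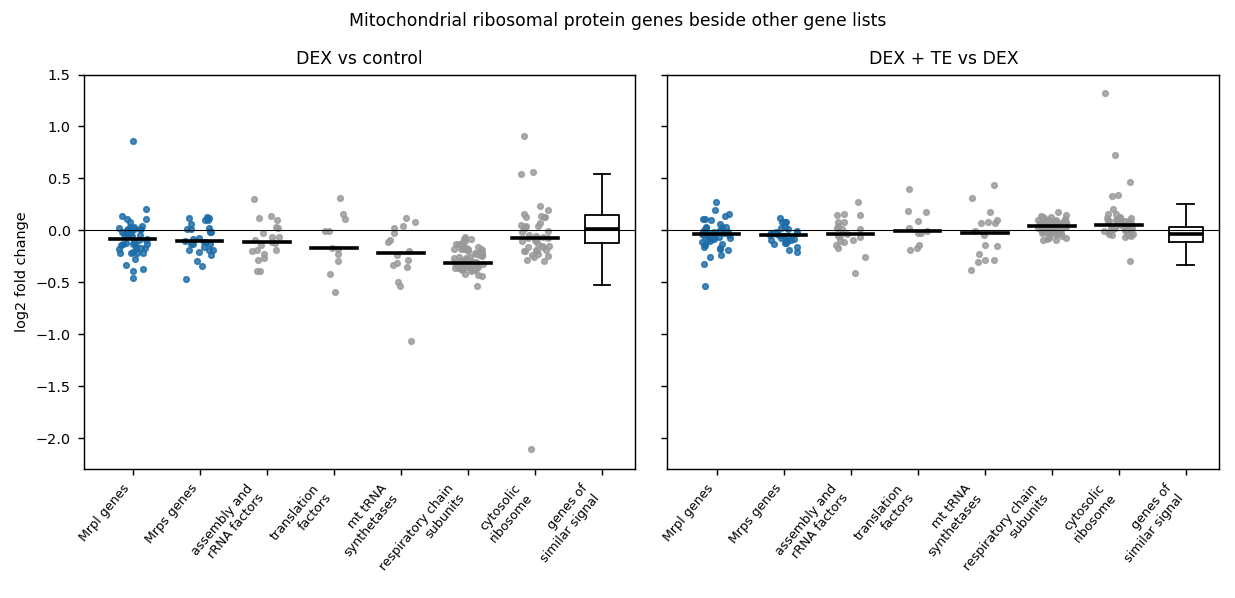
Log2 fold change of each gene (points) and median (black line) for the 47 Mrpl and 29 Mrps genes in blue and for other gene lists in grey, in DEX vs control and DEX + TE vs DEX, as deposited, with a box (median, quartiles, whiskers to 1.5 times the interquartile range, points beyond them not drawn) for the 1525 genes of similar signal. The respiratory chain subunits lie lowest in DEX vs control, with a median of −0.31, and the medians of the 7 lists drawn lie between −0.04 and 0.05 in DEX + TE vs DEX.

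Markers of other cells in the muscle differed between the groups. All 6 fibroblast markers were lower by value in DEX vs control, 3 of them called (Col1a2, Col1a1 and Pcolce), and their summed signal was 26129 to 28106.5 in DEX + TE mice, 17547 to 20670.5 in DEX mice and 29302 to 43567 in control mice. The 5 fiber markers were also lower by value in DEX mice, with sums of 268607 to 293542 in DEX + TE mice, 215515 to 274337 in DEX mice and 276558 to 401931 in control mice. The 5 slow-fiber markers summed to 1299 to 2083 in DEX + TE mice, 1320 to 3281 in DEX mice and 991 to 1127 in control mice. The 5 leukocyte markers, of which Cd3e was below the filter, summed to 1165 to 1333 in DEX + TE mice, 706.5 to 938 in DEX mice and 736 to 1275 in control mice. The 4 measured adipocyte markers summed to 19897 to 22058 in DEX + TE mice, 16199 to 19759.5 in DEX mice and 20648 to 24601 in control mice, sums that rest mostly on Fabp4, with log2 fold changes of −0.40 in DEX vs control and −0.21 in DEX + TE vs control. The other 3, Adipoq, Cidec and Lep, were higher by value in both, and Adipoq was called higher in DEX + TE vs control (2.19). The endothelial markers summed to 2546 to 2781 in DEX + TE mice, 2822 to 3426 in DEX mice and 2496 to 3027 in control mice. None of the marker signals was 0, and their part in the values of the mitochondrial ribosomal protein genes was not tested.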

How the data were processed

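RNA of the tibialis anterior of 9 mice, 250 ng per sample, was hybridised to Affymetrix arrays with a 3′ in vitro transcription kit. The authors deposited 1 linear intensity per probe set and array. Every array has the same trimmed mean, whereas the Robust Multi-array Average that the methods name gives log2 values, so the deposited intensities are another summary, and no source used here names the program behind them. Of 45101 probe sets, 64 controls were left out, and 34945 of the rest had 1 symbol, 932 several and 9160 none in the platform annotation.

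Deposited intensities were taken to log2 and fitted with limma 3.58.1 in R 4.3.3 (lmFit and eBayes, all 9 arrays). Groups came from the sample labels. The labels number the 3 samples of a group as biological replicates. Probe sets with a group mean of at least log2 of 50 in 1 or more groups were kept, and p-values were adjusted over these 29269. Rank Product, which the methods name, was run with 100 permutations. The models were tested on simulated data. Gene sequences came from RefSeq (GRCm38.p6). The alternatives were a filter at 100 or none, quantile normalization, centring on array medians, a mean-variance trend, the 6 arrays compared alone, a replicate block and leaving out each array. Python 3.11.15, numpy 2.4.6, scipy 1.17.1, pandas 2.3.3 and matplotlib 3.10.9 were used.

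Named genes were those called, the 6 with the highest and the 6 with the lowest log2 fold change in each comparison, the 4 brightest and 4 dimmest, those whose probe sets differ in sign, and 11 with special roles. Not all members that met this rule are described in the text, for example Mrpl11, Mrpl41 and Mrpl48. Of each other list up to 4 genes were named, by calls and then by absolute log2 fold change. The members and the lists were chosen with earlier results of these data known.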

Additional observations from a re-analysis of the deposited data

How the results depend on the processing

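The number of members called stayed at 0 in each comparison under every alternative with the minimum fold change of 0.6. Without that minimum, alternatives chosen after seeing the data, a mean-variance trend gave 6 members in DEX vs control and 7 in DEX + TE vs control. All were lower, against 2.16% and 1.39% of all probe sets. A filter at 100 gave 2 in DEX vs control, both lower, against 1.07% of the probe sets tested. After centring the arrays on their medians, the median log2 fold change of the members was 0.017 in DEX vs control, −0.29 in DEX + TE vs DEX and −0.29 in DEX + TE vs control. The members whose groups did not overlap then numbered 10 in DEX vs control, 4 of them higher, against 19.7% of all probe sets. In DEX + TE vs DEX they numbered 61, against 28.9%. Centring moves every gene of a comparison by the same amount, and the genes of similar signal also had a median of −0.29 there. Whether the count of 61 is particular to the members was not tested. Leaving out 1 array gave medians of −0.10 to −0.07 in DEX vs control, −0.08 to −0.02 in DEX + TE vs DEX and −0.17 to −0.09 in DEX + TE vs control. Members without overlap then numbered 30 to 33 in DEX vs control, against 29.3 to 33.5% of all probe sets, 14 to 28 in DEX + TE vs DEX, against 23.5 to 26.6%, and 29 to 37 in DEX + TE vs control, against 31.3 to 34.8%. With a replicate block, 0 members were called. The medians were −0.09, −0.04 and −0.14 in these comparisons, values that such a block cannot change, since every group holds the same replicate numbers. The deviations from the group means had r from −0.02 to 0.05 over 9 pairs of arrays with the same replicate number, and from −0.04 to 0.04 over 18 other pairs. With 3 arrays per group, these values cannot tell whether arrays of the same number were handled together. The log2 fold changes of the named members kept their sign in 2208 of 2304 checks, and 31 of the 96 changes of sign came with centring. Many of these checks could not change a sign. Another filter, the mean-variance trend, the 6 arrays alone and the replicate block leave the log2 fold change as it is. So does leaving out an array that is not part of the comparison. The precision was limited by 3 mice per group and, for dim probe sets, by the signal over background.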

Other observations

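Of the 2 genes read only by shared probe sets, Mrpl30 shares its bright probe set with Gm6238. That probe set had signals of 12654, 12670.0 and 13679 in DEX + TE mice, 12303, 13168 and 12997 in DEX mice and 16376, 14108 and 13725 in control mice. Every control mouse thus lay above the 6 mice given DEX. Mrpl53 shares its probe set with Ccdc142. Its signals were 5349, 4846 and 4931 in DEX + TE mice, 5502, 5069 and 4778 in DEX mice and 5474, 5076 and 4767 in control mice, and the groups overlapped. These values belong to no test, since a shared probe set does not tell its genes apart.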
